A study of Mus musculus with 12 samples.

Results

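The macrophages compared here are the tdT- and the undisturbed tdT+ subdural CNS-associated macrophages (sdCAMs) of mouse brain, each sorted by the surface protein CD206 and profiled by bulk RNA-seq. The 4 libraries of tdT- cells from mice given BLZ945 were set against the 4 libraries of tdT+ cells from mice given vehicle, 8 of the 12 libraries of the series, and all 13724 genes with at least 10 counts in at least 4 of the 12 libraries were described, of 56735 genes in the table. Every mouse was Mrc1CreERT2/CreERT2:R26tdT/tdT, homozygous for an inducible Cre at the locus of the CD206 gene and for a Cre-dependent tdTomato reporter, and received tamoxifen as a young adult. Vehicle or BLZ945, a CSF-1R inhibitor that depletes macrophages, was given for 7 days from 4 weeks after tamoxifen, BLZ945 at 200 mg/kg, and cells were sorted 8 weeks later from brain without choroid plexuses. A tdT- cell of a BLZ945 mouse carried no label of the cells that expressed Mrc1 at tamoxifen, which is the reading of such cells as newly recruited, but cells that escaped recombination would look the same. The remaining 4 libraries hold tdT+ cells of the same BLZ945 mice and entered the fit for its estimate of spread. Libraries are named by their mouse labels F1, F2, M1 and M2, and vehicle and BLZ945 mice are different animals, so treatment, labelling history and mouse differ together in this contrast and cannot be told apart. Library names also hold the word pre for vehicle and Post for BLZ945 mice, so any difference in when cells were isolated goes with treatment.

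sdCAMs are long-lived macrophages of the leptomeninges and perivascular spaces that arise from embryonic precursors. They take up material from the cerebrospinal and interstitial fluid through scavenger receptors, clear dead cells, make complement, recycle iron and lipid, and some present antigen on MHC class II. When resident macrophages are lost, monocytes from the blood can enter such a niche and take on part of the resident programme, and the comparison asks which parts of that programme the tdT- cells had reached and which they had not.

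The 8 libraries held 20274521 to 23395058 counts each, with 14230 to 15866 genes detected. The share of counts from mitochondrial genes separated the groups, at 0.702% to 1.13% in vehicle and 0.324% to 0.631% in tdT- libraries, with 0.515% to 0.589% in tdT+ libraries of BLZ945 mice, and its part in the results was not tested. Replicates of tdT- cells resembled each other less than vehicle replicates did, with correlations (Pearson's r, log2 counts, across genes, which are not independent) between 0.684 and 0.714 for the pairs of tdT- libraries and between 0.755 and 0.830 for the vehicle pairs. The tdTomato entry had 0 counts in all 12 libraries, so it gives no check of the sort. Library tdT- F2 stood apart, with 472500 summed normalised counts (counts divided by the DESeq2 size factor) of 12 neutrophil markers, against 11.5 to 93.9 in the other tdT- libraries and 2.00 to 70.3 in the vehicle libraries, and 37150 of 7 red cell markers, against 8.44 to 100.1 in the other tdT- and 54.1 to 8778 in the vehicle libraries. Markers of microglia, the macrophages of the brain parenchyma, also differed between the groups. The sum over 12 markers was 320500 to 397400 in vehicle and 593600 to 1145000 in tdT- libraries, 2.19-fold higher on average. In bulk RNA, more cells of a type and more RNA per cell cannot be told apart. Some values that move with either list are marked where they are given, and values without a mark were not shown to be free of such RNA.

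Most genes did not separate the 2 groups. Of the 13724 genes, 203 (1.48%) were DEGs with higher and 147 (1.07%) with lower expression in tdT- cells, by DESeq2 with p adjusted over all genes (Benjamini-Hochberg) not above 0.05 and a shrunken log2 fold change of 1 or more in either direction. A second test asked the opposite question, whether the difference was smaller than 2-fold, and 3758 genes (27.4%) passed it at the same adjusted p. They are called within 2-fold here, and 169 of them had an adjusted p of at most 0.05 for a difference as well, so that they differed by less than 2-fold. The other 9616 genes (70.1%) were undecided, neither shown to differ by 2-fold nor shown not to. edgeR called 273 DEGs (1.99%), 139 higher and 134 lower, and shared 126 of the 203 and 101 of the 147. All 4 tdT- libraries lay above all 4 vehicle libraries for 662 genes (4.82%) and below them for 669 (4.87%), among them 187 of the higher and 139 of the lower DEGs.

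Whether a gene could be placed within 2-fold depended on its level. None of the 4144 genes with a mean below 100 normalised counts was, against 2.29% between 100 and 300, 27.6% between 300 and 1000, 72% between 1000 and 3000 and 84.4% of the 1139 genes above 3000. The share of DEGs depended on level as well, with 0.41% higher and 0.265% lower in the lowest band and 3.25% and 2.72% in the highest. Among the 200 genes with the highest expression per length in tdT+ cells of BLZ945 mice, which are no part of the contrast, 154 (77%) were within 2-fold between tdT- and vehicle cells, 14 lower and 8 higher.

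**Figure D1:**
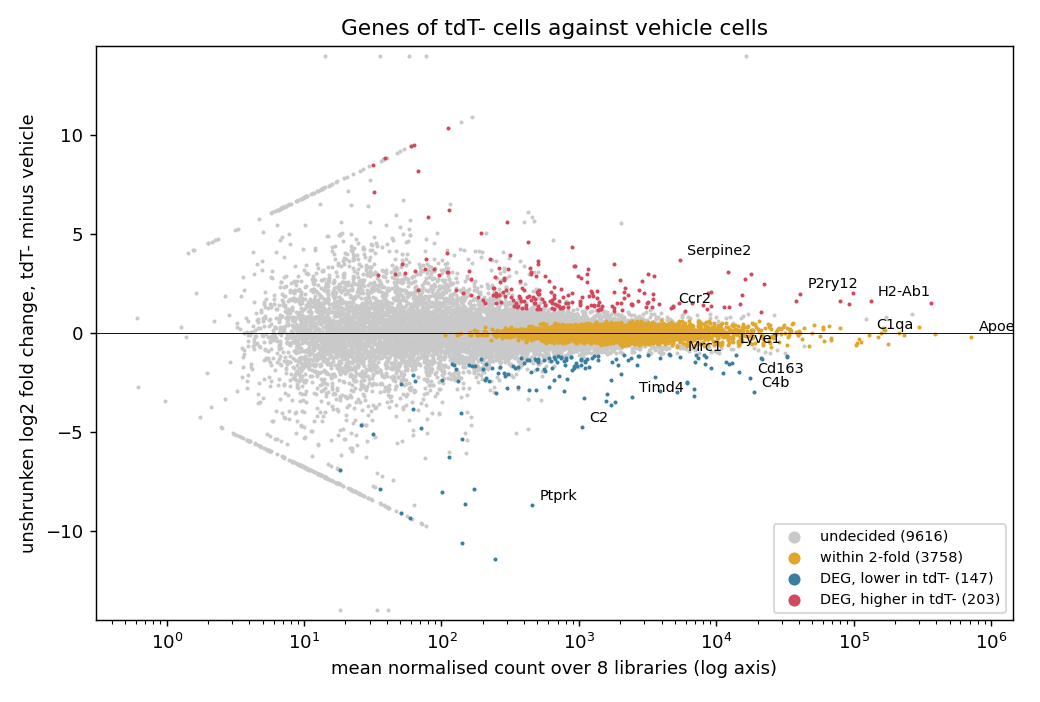
Each point is a gene, by its mean normalised count over the 8 libraries (log axis) and its unshrunken log2 fold change, tdT- minus vehicle, coloured by call, and fold changes beyond 14 in size are drawn at 14. The 3758 genes within 2-fold sit at mid to high levels around 0, and the 203 higher and 147 lower DEGs lie on both sides at nearly all levels.

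The functional lists differed widely in their share within 2-fold. MHC class I presentation (16 of 19 genes tested), lysosome (44 of 53), Fc receptors (7 of 9) and cytokine and growth factor receptors (18 of 28) lay far above the 27.4% of all genes. Resident surface markers (11 of 26 lower) and scavenger and endocytic receptors (7 of 21 lower) held the largest shares of lowered genes, beside 1.07% of all genes, and monocyte heritage (9 of 28 higher) and MHC class II presentation (9 of 20 higher) the largest shares of raised genes, beside 1.48%. The rank of monocyte heritage rested on tdT- F2, the library with neutrophil RNA. Without it, 5 of the 28 were called higher, beside 6 of 29 genes for matrix proteins. The lists were not matched to all genes on level, with which the share within 2-fold moved, to 84.4% of all genes above 3000 normalised counts. The shares of DEGs moved with level too, to 3.25% higher and 2.72% lower in that band. A high share in a list is therefore not by itself a trait of its function. The lists were also chosen with earlier results of these data known. Their shares of raised and lowered genes can partly follow from that choice and are no independent test. For each list below, the shares of all genes to set beside its counts are 27.4% within 2-fold, 1.48% higher, 1.07% lower and 70.1% undecided.

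**Figure D2:**
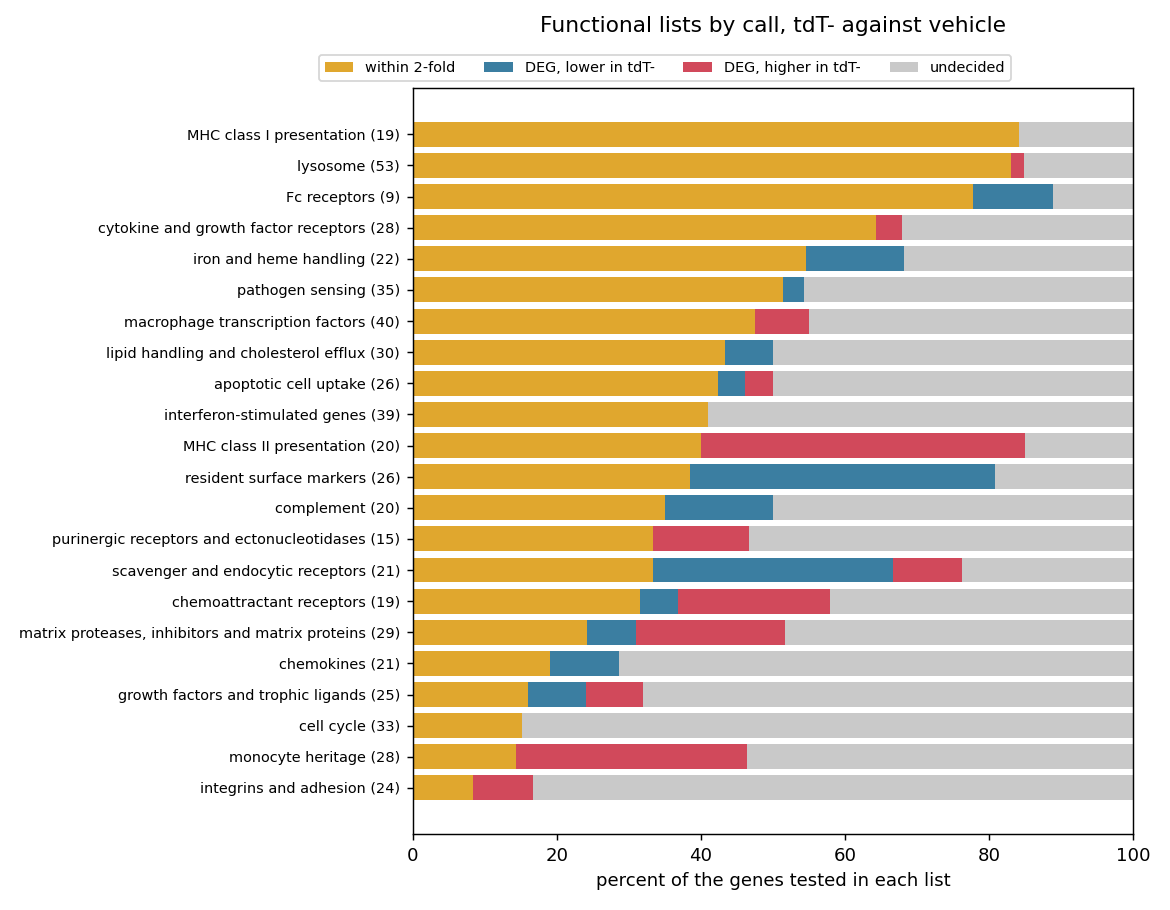
Bars give, for each of 22 functional lists with the number of genes tested in parentheses, the percent of genes within 2-fold, lower, higher and undecided in tdT- against vehicle cells. Lists are ordered by their share within 2-fold, from MHC class I presentation at the top to integrins and adhesion at the bottom.

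Small counts in a list moved when a single library was left out, by at most 2 genes for a count of 0 or 1. Without tdT- F1, Stab1, Igf1r, Rsad2 and Vcam1 were called lower and Csf3r and Ifi44 higher. Without tdT- F2, Trem2 and Slc39a8 were called higher, which made 2 apoptotic uptake genes, 1 lipid gene and 1 iron gene, and without tdT- M1, Mcm5 was called higher and P2rx7 lower. Without tdT- M2, Zbtb46, Sgsh, Enpp1, P2rx7, Cxcl9 and Ninj1 were called lower and Ccl3, Ccl17 and Bhlhe40 higher. Without vehicle F1, Ccl3 and Ifi44 were called higher and P2rx7 lower, and without vehicle M2, Ccl2 was called higher and Zbtb46 and Vcam1 lower. These genes are named because their calls changed. Counts within 2-fold of some lists fell as well when a library was left out, to as few as 4 of 20 for MHC class II presentation (without vehicle F1 or F2, or tdT- M1), 8 of 30 for lipid handling (without vehicle F1 or F2), 3 of 15 for purinergic genes (without vehicle F1 or F2, or tdT- F1 or F2), 3 of 33 for cell cycle (without vehicle M1 or M2, or tdT- M2) and 2 of 25 for growth factors (without vehicle F2 or M1, or tdT- F1), and rose to 4 of 24 for integrins without vehicle M2.

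Resident surface markers had the largest share of lower genes among the 22 lists. Of 26 genes tested, 11 were lower, 10 within 2-fold, 5 undecided and 0 higher (0 by edgeR as well, which called 12 lower), and the median log2 fold change was -0.91, beside 0.03 over all genes. The tdT- libraries lay below all vehicle libraries for 17 of the 26, beside 4.87% of all genes. The lowered genes differed in how far they fell.

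Timd4 (chromosome 11, 46701627 to 46735159, GRCm39), a receptor for phosphatidylserine on dying cells and a marker of long-lived resident macrophages, had 5454, 4302, 3409 and 4460.0 normalised counts in vehicle libraries F1, F2, M1 and M2 and 288, 302, 1071 and 226 in tdT- libraries in the same order. The groups did not overlap, tdT- M1 was the highest of the tdT- libraries, and the mean was 9.34-fold lower (shrunken log2 fold change -3.12 ± 0.40 SE, adjusted p = 6.4e-14). The C-type lectins Cd209f and Cd209b, homologues of the pathogen receptor DC-SIGN, went the same way. Cd209f had 15054, 14048, 11713 and 8958 in vehicle and 1044, 454, 2804 and 1172 in tdT- libraries, 9.09-fold lower (adjusted p = 1.31e-09). Cd209b had 3357 ± 815 in vehicle (SD, n = 4) and 298 ± 185 in tdT- cells (adjusted p = 6.43e-21). For all 3 the highest tdT- library stayed below the lowest vehicle library.

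Cd163 (chromosome 6, 124281615 to 124307486, GRCm39), the receptor for haemoglobin bound to haptoglobin, had 27419, 35695, 28348 and 25742 normalised counts in vehicle and 6294, 5429, 5783 and 6846 in tdT- libraries, a 4.81-fold difference with little spread in either group (log2 fold change -2.26 ± 0.13, adjusted p = 2.29e-67). Cd38, an ectoenzyme that consumes NAD and was picked after its values were seen, was 4.06-fold lower (18002 ± 948 against 4436 ± 809, adjusted p = 6.07e-48). Clec10a, a lectin for galactose-type sugars, had 15937, 11733, 10979.6 and 11239 in vehicle and 6011, 3354, 3389 and 4196 in tdT- libraries, 2.94-fold lower (adjusted p = 1.03e-14). Cd36, a scavenger receptor for lipoproteins and fatty acids, was 2.74-fold lower (adjusted p = 5.13e-07), with tdT- F1 at 10885 and the other tdT- libraries at 4134 to 5703.

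A further group lay at just over 2-fold. Mrc1, the gene of the CD206 protein by which all cells were sorted, had 6012, 8869.6, 8302 and 7274 in vehicle and 3882, 3738, 2232 and 3421 in tdT- libraries, 2.29-fold lower (log2 fold change -1.15 ± 0.20, adjusted p = 5.78e-08). The cells of both groups were gated on this gene's product, so its level is not independent of the sort. Pf4, the platelet factor chemokine, was 2.22-fold lower (45134 ± 2547 against 20368 ± 2779.6, adjusted p = 4.88e-20), Cbr2, a carbonyl reductase, 2.38-fold (29606 ± 1579.7 against 12436 ± 2779, adjusted p = 5.99e-16) and Siglec1, a sialic acid receptor picked after its values were seen, 2.41-fold (adjusted p = 2.95e-05, log2 fold change -0.999 and just short of the threshold without tdT- M2). Each had groups that did not overlap.

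Several of the best known resident genes differed by less and stayed undecided at the 2-fold threshold. Lyve1, the hyaluronan receptor that marks a subset of perivascular and leptomeningeal macrophages, had 18153, 21081, 15504 and 12094 in vehicle and 9504, 5912, 11303 and 11834 in tdT- libraries. The tdT- libraries were all lower, but tdT- M2 lay just below vehicle M2, and the unshrunken log2 fold change had a 95% Wald interval of -1.19 to -0.40 (adjusted p = 0.00247 for a difference and 0.312 for being within 2-fold). Folr2, a folate receptor, had 3110.4 ± 256 against 1847 ± 305 (interval -1.06 to -0.45, adjusted p = 7.08e-05). Stab1, a scavenger receptor for modified lipoproteins, had 42449 ± 1655 against 20882 ± 4129.6 (interval -1.31 to -0.74, adjusted p = 2.25e-10), and its shrunken log2 fold change of -0.99 passed 1 in size with TMM factors (-1.02), in edgeR (-1.05) and without tdT- F1 (-1.13). All 3 differed in expression, and whether by more or less than 2-fold was not settled.

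Of the 10 resident markers within 2-fold, some were nearly equal and some differed by less than the margin. Csf1r, the receptor on which these cells depend for survival, had 154524, 178628, 163409 and 144834 in vehicle and 143530.0, 120577, 153618 and 146627 in tdT- libraries, with overlapping groups (adjusted p = 1.13e-19 for being within 2-fold). Ms4a7, a tetraspan protein used to tell CNS-associated macrophages from microglia, had 24241, 20317, 22602 and 22487 in vehicle and 16835, 10806, 16482 and 20300.4 in tdT- libraries, all 4 lower but by 1.39-fold on average (adjusted p = 0.00218 for being within 2-fold). F13a1, a transglutaminase subunit, was 1.56-fold lower on average (0.0419), and it lost the call within 2-fold in 10 of 13 other DESeq2 fits. Cx3cr1, the fractalkine receptor, was 1.51-fold higher on average (0.0232), all 4 tdT- libraries above all vehicle libraries, and lost that call in 6 of 13 fits. Fcrls, at 76948 ± 10732 against 60389.8 ± 10069, is also on the list of microglia markers. The part of microglial RNA in the values of these resident markers was not tested.

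**Figure D3:**
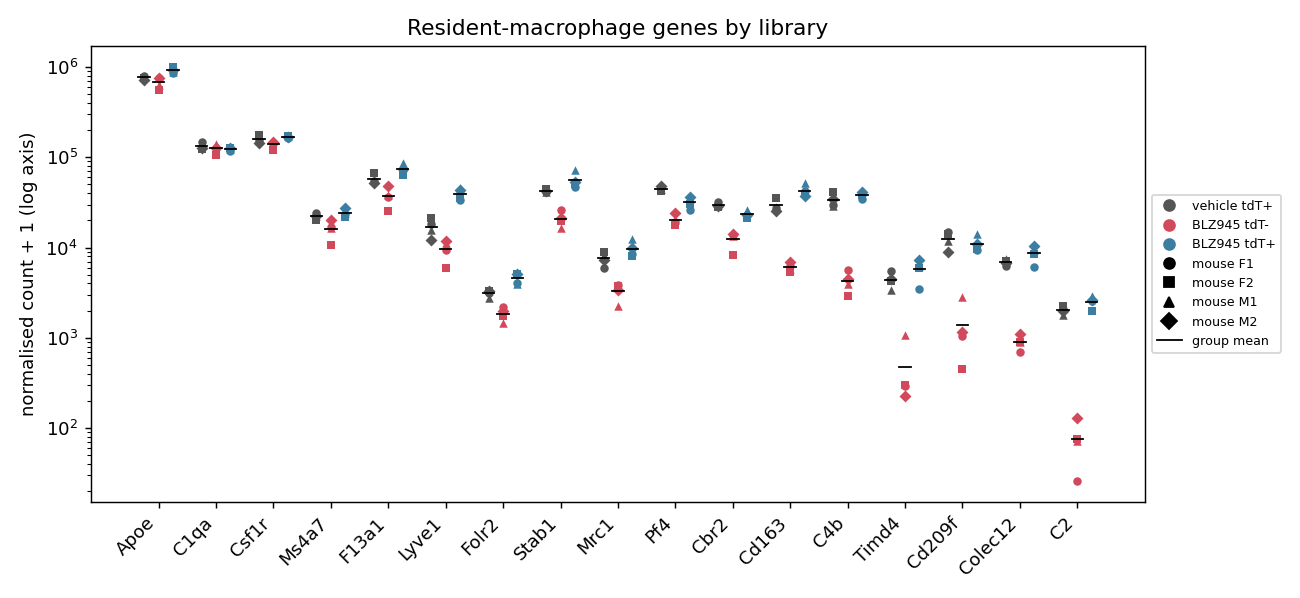
Normalised counts plus 1 (log axis) of 17 resident-macrophage genes in each library of the 3 groups, with black bars at the group means and marker shapes for the mouse labels. The gap between vehicle and tdT- cells broadly widens from left to right, from Apoe, C1qa and Csf1r, where the groups overlap, to C2, where tdT- libraries hold 25 to 128 counts and vehicle libraries 1807 to 2251.

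Among the scavenger and endocytic receptors, 7 of 21 genes tested were lower, 2 higher, 7 within 2-fold and 5 undecided, with a median log2 fold change of -0.52. Colec12, a scavenger receptor with a collagen and a lectin domain, had 6316, 7190.0, 7506 and 6660.3 in vehicle and 704, 894, 909 and 1091 in tdT- libraries, 7.69-fold lower (log2 fold change -2.92 ± 0.17, adjusted p = 7.26e-61). Fcgrt, which encodes the receptor that recycles IgG and albumin, had 33623, 31886, 28846 and 28352 against 12310.1, 9689, 13609 and 13947, 2.48-fold lower (adjusted p = 7.27e-28). Clec4n, also called dectin-2 and a receptor for fungal mannans, was 2.35-fold lower (adjusted p = 9.93e-08) with its lowest value in tdT- F2. Cd163, Cd36, Clec10a and Mrc1, given above, complete the 7. Among the genes within 2-fold were clathrin heavy chain Cltc at 29100.5 ± 2878 against 20314 ± 600.4 and the adaptor subunit Ap2a2 at 6732 ± 877 against 4686 ± 687, both lower in all 4 tdT- libraries, and the class A scavenger receptor Msr1 at 7626 ± 535 against 5797 ± 1494. Mrc2, a collagen receptor related to CD206, had 0 counts in all vehicle libraries and 245, 171, 412 and 65 in tdT- libraries, at least 79.2-fold higher against the mean floor of 3 counts per library. Sorl1, a sorting receptor, was 2.4-fold higher (adjusted p = 0.00178), and its shrunken log2 fold change fell under 1 without vehicle F2 (0.99), tdT- F1 (0.93) or tdT- F2 (0.89), leaving 1 higher gene in the list.

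Of the 22 genes tested for iron and heme handling, 3 were lower, 12 within 2-fold and 0 higher (edgeR: 3 lower, 0 higher), beside 1.07%, 27.4% and 1.48% of all genes. Slc40a1, the iron exporter ferroportin, had 17860.1, 19886, 20969.7 and 18798 in vehicle and 4657, 5721, 10471 and 6444 in tdT- libraries, 2.84-fold lower with tdT- M1 the highest of its group (adjusted p = 1.75e-12). Cp, ceruloplasmin, which oxidises exported iron, was 2.29-fold lower (11804 ± 865 against 5159 ± 1464, adjusted p = 4.32e-10). Cd163, given above, was the other. The ferritin chains Fth1 (210595 ± 12625 against 143691 ± 4967) and Ftl1 (119362 ± 12104 against 98250.1 ± 10508) and transferrin, Trf (125280.0 ± 6603 against 87458 ± 11247), were within 2-fold, Fth1 and Trf lower in all 4 tdT- libraries. The heme oxygenase Hmox1, picked after its values were seen, was undecided (interval -1.07 to 0.04).

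Complement genes split. C4b (chromosome 17, 34947354 to 34962856, GRCm39), a component of the classical pathway, had 29756, 41444, 28584 and 34214 in vehicle and 5614, 2904, 3931 and 4459 in tdT- libraries, 7.92-fold lower (log2 fold change -2.97 ± 0.17, adjusted p = 1.99e-66). C2, the protease that acts with it, had 2074, 2251, 1807 and 1964 against 25, 75.3, 71.7 and 128, 27-fold lower (adjusted p = 7.6e-42), and Cd55, which limits complement at the cell surface, had 1492, 1518, 1144 and 1363 against 11.5, 57.4, 378 and 273, 7.67-fold lower (adjusted p = 0.000175). In each case all tdT- libraries were below all vehicle libraries. The 3 chains of C1q, which start the same pathway, were within 2-fold. C1qa had 146966, 123735, 136459 and 128164 in vehicle and 128405, 106995, 142284 and 128170.0 in tdT- libraries, and C1qb and C1qc had 178869 ± 33711 and 178732 ± 36652 in tdT- against 149201 ± 9288 and 158447 ± 11225 in vehicle cells. The receptors C3ar1 and C5ar1 were within 2-fold as well. Of the 20 complement genes tested, 3 were lower, 7 within 2-fold, 10 undecided and 0 higher (0 by edgeR), beside 1.07%, 27.4%, 70.1% and 1.48% of all genes. The counts of lower genes and of genes within 2-fold were the same without tdT- F2. Exons of C2 overlap those of Zbtb12 and a predicted gene, and reads were counted without strand.

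For the uptake of apoptotic cells, 1 gene was lower (Timd4), 1 higher (Itgb5) and 11 within 2-fold among 26 tested, beside 1.07%, 1.48% and 27.4% of all genes. Itgb5, an integrin chain that binds bridging molecules on dying cells, had 15692, 14890.0, 13404 and 10833 in vehicle and 26297, 24565, 38354 and 25324 in tdT- libraries, 2.09-fold higher (log2 fold change 1.03 ± 0.15, adjusted p = 2.52e-10), and lay under a shrunken log2 fold change of 1 with TMM factors (0.995), without vehicle M2 (0.92) and without tdT- M1 (0.86). Mertk, the main engulfment kinase of resident macrophages, had 3963, 4144, 3509.5 and 3380.2 against 5443, 5222, 7727 and 4597, all 4 tdT- libraries higher and the size undecided (interval 0.26 to 0.98, adjusted p = 0.0161). Itgb5 and Mertk were both highest in tdT- M1, where the sum of microglia markers was highest too. The part of those markers in the differences was not tested. Gas6, the ligand of Mertk, was within 2-fold and lower in all 4 tdT- libraries (30812 ± 499.6 against 19252 ± 3008), and the small GTPase Rac1 (18330.1 ± 808 against 17598 ± 798) and the signalling adaptor Tyrobp (37359 ± 2091 against 38535 ± 2996) were close to equal. Of 9 Fc receptor genes tested, 7 were within 2-fold, among them Fcgr3 and the common chain Fcer1g (60086 ± 3770.1 against 54040.4 ± 4057), and Fcgrt alone was lower, by edgeR too.

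Among 40 transcription factors of macrophages, 19 were within 2-fold, 3 higher, 18 undecided and 0 lower (0 by edgeR, which also called 3 higher, Batf3 not among them). Of all genes, 27.4% were within 2-fold, 1.48% higher, 70.1% undecided and 1.07% lower. Spi1, which encodes PU.1, the factor that specifies myeloid cells, had 8245, 7698, 7972 and 7861 in vehicle and 8570.5, 8265, 9749.7 and 9528 in tdT- libraries (adjusted p = 3.22e-16 for being within 2-fold). Irf8 (7512 ± 606 against 10601 ± 1709.7) and Mef2c (10614 ± 1303 against 9521 ± 1113) were also within 2-fold. Maf, which restrains proliferation of mature macrophages, had 23976, 26157, 26902 and 26334 in vehicle and 15700.3, 13725, 11676 and 15410.3 in tdT- libraries, all 4 lower (interval -1.09 to -0.65, adjusted p = 3.98e-12), and the interval includes 1 in size.

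The 3 higher factors were Sall1, Id2 and Batf3. Sall1, a zinc finger factor of microglia, had 191, 319.9, 212 and 160.4 in vehicle and 1482, 1455, 3081 and 2441 in tdT- libraries, 9.57-fold higher (adjusted p = 2.9e-14), and belongs to the microglia markers described further on. Id2, an inhibitor of E proteins, was 3.7-fold higher (501 ± 152 against 1856 ± 491, adjusted p = 1.14e-08). Batf3, a factor of dendritic cells, was 2.82-fold higher (adjusted p = 0.037) but lost its call in 9 of 14 other fits, edgeR included. Without vehicle F2 or M1 its log2 fold change was 0.75, without tdT- F1, F2, M1 or M2 it was 1.12, 0.96, 1.10 or 0.77, and the adjusted p without any of these 6 lay between 0.0573 and 0.144.

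Of 28 receptors for cytokines and growth factors tested, 18 were within 2-fold (64.3%, beside 27.4% of all genes), 1 higher and 0 lower (edgeR: 1 higher, 0 lower). Besides Csf1r and Cx3cr1, Ifngr1, a chain of the interferon-γ receptor, was within 2-fold, at 26352 ± 1450.2 against 35544 ± 5561. Tgfbr1, a receptor chain for TGF-β, had 6327, 8582, 7621 and 3751 in vehicle and 15158, 14226, 21261 and 14386 in tdT- libraries, 2.47-fold higher (adjusted p = 2.11e-06), and its highest value was in tdT- M1, where the sum of microglia markers was highest too. The part of those markers in the difference was not tested.

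Lysosome and MHC class I genes had the largest shares within 2-fold. Of 53 lysosome genes tested, 44 (83%) were within 2-fold, beside 27.4% of all genes and 84.4% of genes with a mean above 3000 normalised counts. Of the 53, 0 were lower (0 by edgeR, and 1.07% of all genes), and the median log2 fold change was -0.03. Ctsb had 249517, 236520.0, 240355 and 231510.0 in vehicle and 243127, 167399, 249353 and 251802 in tdT- libraries, with tdT- F2 well below the others. Ctsc (130224 ± 8959 against 96526 ± 14485) and the progranulin gene Grn (73635 ± 5250.1 against 63006 ± 9379.7) were within 2-fold as well. The list held 1 DEG, which was higher. The proteases Ctsd and Ctss, picked after their values were seen, were higher in all 4 tdT- libraries and undecided (intervals 0.43 to 1.03 and 0.59 to 1.09).

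Of 19 MHC class I genes tested, 16 were within 2-fold (27.4% of all genes were) and 0 were DEGs in either test. B2m, the shared light chain, had 173578, 147310.0, 158612 and 156110.0 in vehicle and 175125, 161514, 182676 and 180774 in tdT- libraries, and the heavy chains H2-K1 and H2-D1 were at 32619 ± 1031 against 36388 ± 5889 and 72636 ± 7583 against 87974 ± 14433. For lipid handling, 13 of 30 genes were within 2-fold, 2 lower and 0 higher (edgeR: 2 lower, 0 higher), beside 27.4%, 1.07% and 1.48% of all genes. Apoe, the main lipoprotein of these cells, had 791504, 753156, 796913 and 727494 in vehicle and 762029, 564416, 628565 and 750320.0 in tdT- libraries, and Npc2, which moves cholesterol out of lysosomes, 17925 ± 1826 against 18979.6 ± 1669. Pltp, a phospholipid transfer protein, was within 2-fold and lower in all 4 tdT- libraries (17735 ± 1107 against 12798 ± 2261). The lower genes were Cd36 and the fatty acid transporter Slc27a6, which had 231, 641, 422 and 679.6 in vehicle libraries and 0 counts in all 4 tdT- libraries, at least 165-fold lower. Its adjusted p was at most 3.74e-09 in the DESeq2 fits that left out a library, but its shrunken fold change collapsed in each of those 8 fits (-0.21 to -0.30), so that only Cd36 was then called. Per length, Apoe was the more abundant of Apoe and C1qa in both groups, at 47210.0 and 16910.0 TPM (length-normalised counts scaled to a fixed sum) in vehicle and 38150.0 and 14640.0 in tdT- cells.

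MHC class II presentation, by which macrophages show antigen to CD4 T cells, had the largest share of raised genes among the 22 lists. Of 20 genes tested, 9 were higher, 8 within 2-fold, 3 undecided and 0 lower, with a median log2 fold change of 0.89, and edgeR called 7 higher and 0 lower. H2-Ab1 (chromosome 17, 34476663 to 34488393, GRCm39), the β-chain of I-A, had 80286, 61427, 70981 and 49078 in vehicle and 227555, 204964, 147597 and 224301 in tdT- libraries, 3.07-fold higher (log2 fold change 1.62 ± 0.19, adjusted p = 7.44e-16). Cd74, the invariant chain, had 228453, 174532, 210768 and 147968 against 646632, 562991, 378371 and 590428, 2.86-fold higher (adjusted p = 2.62e-14). For both the groups did not overlap, and tdT- M1 was the lowest tdT- library. H2-Aa and H2-Eb1, picked after their values were seen, were 2.79-fold and 3.03-fold higher, and the peptide exchange factor H2-DM, with H2-DMa and H2-DMb1 picked in the same way, 2.5-fold and 2.55-fold. H2-Oa and H2-Ob, chains of a modulator of H2-DM, were 6.02-fold (76.3 ± 71.8 against 459 ± 109, adjusted p = 0.00145) and 3.78-fold higher (274 ± 109.9 against 1035 ± 372, adjusted p = 8.27e-05), though edgeR did not call H2-Oa (adjusted p = 0.0565). The co-stimulator Cd86 (7526 ± 536 against 8059.9 ± 1904), the endopeptidase Lgmn (58256 ± 4231 against 73615 ± 17042) and the ubiquitin ligase Marchf1, which lost its call within 2-fold in 8 of 13 fits, were within 2-fold. Ciita, the master regulator of these genes, picked after its values were seen, had 418, 236, 174 and 416 in vehicle and 492, 666, 42.2 and 1178 in tdT- libraries, with overlapping groups (interval -0.39 to 2.26). Without tdT- F2, 9 genes of the list were called higher as well. Without vehicle F1, vehicle M2 or tdT- F1, 8 were, as H2-DMb2, picked after its values were seen, lost its call (adjusted p = 0.0542, 0.061 and 0.106).

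The promoters of the raised MHC class II genes are shown because these genes moved together and a known shared element, the Y box bound by NF-Y, can be read in them. The Y box was searched as CTGATTGG on both strands in the 250 bases before the annotated start (RefSeq, build GRCm38.p6, whose coordinates differ from those of the count table). It was present for 3 of the 7 genes of the 9 that had a window, beside 4.43% of all 27025 genes with a window and 6.36% of the genes tested. Among all DEGs it was present for 15 of 150 higher genes (10%) and 6 of 99 lower genes (6.06%). Capitals mark the match, which lies 43, 54 and 38 bases before the start in H2-Aa (chr17:34287824-34288073, minus strand), H2-Eb1 (chr17:34305617-34305866, plus strand) and H2-Oa (chr17:34092129-34092378, plus strand), and a match is a description of sequence only.
H2-Aa: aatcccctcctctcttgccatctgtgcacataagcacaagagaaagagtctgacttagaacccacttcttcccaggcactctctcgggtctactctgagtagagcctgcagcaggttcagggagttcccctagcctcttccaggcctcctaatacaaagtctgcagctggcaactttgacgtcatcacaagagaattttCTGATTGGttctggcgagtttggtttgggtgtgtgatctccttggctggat
H2-Eb1: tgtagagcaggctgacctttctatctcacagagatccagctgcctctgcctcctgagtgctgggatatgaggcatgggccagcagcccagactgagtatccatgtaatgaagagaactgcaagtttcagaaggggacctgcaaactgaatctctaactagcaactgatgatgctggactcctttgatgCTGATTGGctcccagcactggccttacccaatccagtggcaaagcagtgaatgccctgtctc
H2-Oa: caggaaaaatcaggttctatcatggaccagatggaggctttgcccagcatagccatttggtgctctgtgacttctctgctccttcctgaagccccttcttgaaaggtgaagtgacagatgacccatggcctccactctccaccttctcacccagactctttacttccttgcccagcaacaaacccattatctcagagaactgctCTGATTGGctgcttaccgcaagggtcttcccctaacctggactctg

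Genes of monocytes were the other raised group, and here tdT- F2, the library with neutrophil RNA, moved the count. Of 28 monocyte heritage genes tested, 9 were higher, 4 within 2-fold, 15 undecided and 0 lower, with a median log2 fold change of 1.96. Without tdT- F2, 5 were called, and edgeR called 6 higher and 0 lower. The 5 were Fxyd5, S100a6, Lsp1, Emb and Coro1a, of which S100a6 is named by rule and the others after their values were seen. S100a6, a calcium-binding protein, had 161, 58.4, 85.7 and 70.3 in vehicle and 745, 1837, 299.5 and 334 in tdT- libraries, highest in F2, and the other 3 tdT- libraries also lay above all vehicle libraries (adjusted p = 0.000543). Coro1a, an actin-binding protein of leukocytes, was 2.67-fold higher (4355 ± 595 against 11629 ± 2340.1, adjusted p = 4.9e-15), and Lsp1, another cytoskeletal protein of leukocytes, 4.11-fold (1162 ± 488 against 4782 ± 1400.2, adjusted p = 9.78e-09). Ccr2, the receptor that draws monocytes from marrow to tissue, had 2383, 3852, 3362 and 1476 in vehicle and 6288, 12013, 5226 and 3076 in tdT- libraries, so that the groups overlapped (log2 fold change 1.03 ± 0.42, adjusted p = 0.0195). It lost its call in 8 of 14 other fits, among them those without vehicle F1 (0.86), vehicle M2 (0.73), tdT- F1 (0.73) and tdT- F2 (0.53). Pglyrp1, a peptidoglycan receptor of neutrophils, and Ear2, a ribonuclease of monocytes and granulocytes, had 43.8, 2101, 181 and 9.56 and 279, 1004, 298 and 99.4 in tdT- libraries, both highest in F2, and were not called without it (adjusted p = 0.498 and 0.305). Ear2 lost its call in 12 of 14 fits, among them those that left out any library other than tdT- M2, where the log2 fold change was 0.11 to 0.18, and Pglyrp1 also without vehicle F1 (0.06), vehicle M1 (0.05) or tdT- M1 (0.08). Lyz2, the lysozyme of all these cells, Ifitm3 and Mgst1 were within 2-fold. The part of neutrophil RNA in these values was not tested beyond leaving out tdT- F2.

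Among chemoattractant receptors, 4 of 19 tested were higher, 1 lower and 6 within 2-fold, beside 1.48%, 1.07% and 27.4% of all genes. P2ry12 is described with the microglia markers. Ccr2, above, and the decoy-like receptor Ccrl2 (227 ± 125 against 599 ± 225, adjusted p = 0.0357) were not called by edgeR or without vehicle F1, vehicle M2 or tdT- F2, each of which left 2 higher genes, and Ccrl2 was not called without tdT- M1 either (log2 fold change 0.78, 0.74, 0.90 and 0.65 in these 4 fits). Fpr1, a receptor for bacterial formyl peptides, had 2862, 3337, 3751 and 3156 against 743, 589, 876 and 971, 4.12-fold lower (adjusted p = 2.27e-14). Of 21 chemokines, 2 were lower, 4 within 2-fold and 0 higher in either test, beside 1.07%, 27.4% and 1.48% of all genes. Ccl24, an attractant of eosinophils made by resident macrophages, had 6060.3, 5579.7, 5631 and 6241 in vehicle and 1145, 806, 2063 and 1054 in tdT- libraries, 4.64-fold lower (adjusted p = 8.63e-17), and Pf4 was the other. Ccl6, Ccl8 and Cxcl16 were within 2-fold, Ccl8 with a wide and shared range of 4411 to 11132 in vehicle and 4682 to 12138 in tdT- libraries.

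Genes that mark microglia, parenchymal rather than border macrophages, were raised too. Of 12 microglia markers tested, 8 were higher, 2 within 2-fold (P2ry13 and Fcrls), 2 undecided (Gpr34 and Cst3) and 0 lower, and edgeR called 8 higher and 0 lower. P2ry13 lost its call within 2-fold in 6 of 13 other DESeq2 fits, and 1 marker was within 2-fold without vehicle F1, F2 or M1 or tdT- F1 or F2, and 3 without tdT- M1. P2ry12, the ADP receptor of microglia, had 16925, 18013, 17806 and 13222 in vehicle and 42296, 44758, 106728 and 67976 in tdT- libraries, 3.97-fold higher (log2 fold change 1.91 ± 0.29, adjusted p = 3.25e-10). Tmem119, Slc2a5, Siglech and Olfml3 of the same list were 6.63-fold, 7.29-fold, 4.24-fold and 3.84-fold higher, and Sparc, a matrix glycoprotein, had 4961, 4859.7, 4092 and 2308 against 20037, 21691, 52182 and 33804, 7.87-fold higher (adjusted p = 2.95e-15). None of the 12 was at 0 in the vehicle group. In tdT- cells both M libraries lay above both F libraries for all 12, an order held by 17.2% of all genes tested, by 68 of the 203 higher DEGs (33.5%), by 23 of the 147 lower DEGs (15.6%), and by 0 of the 9 raised MHC class II genes and 0 of the 9 raised monocyte genes. Each group has 2 mice of either letter, and the cause of the order was not tested.

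The leading DEGs of the contrast included others with that order of libraries. Serpine2, a protease inhibitor, had 1148, 954, 525 and 491 in vehicle and 5752, 7041, 16158 and 11209.7 in tdT- libraries, 12.9-fold higher (adjusted p = 2.47e-24). Selplg, the P-selectin ligand, had 8243, 7254, 6320.4 and 5176 against 27076, 28531, 59075 and 37694, 5.64-fold higher (adjusted p = 1.27e-30), and Cd34, a sialomucin, 399, 338, 211 and 253 against 1481, 2703, 4874 and 4265, 11.1-fold (adjusted p = 2.79e-21). Adora3, an adenosine receptor, was 9.63-fold higher (82.6 ± 60.9 against 796 ± 267, adjusted p = 1.7e-08), and its exons overlap those of Tmigd3. Of the microglia markers, Sall1 among the transcription factors, Sparc among the matrix genes and P2ry12 among the purinergic and chemoattractant receptors were counted in those lists as well. The part of microglial RNA in the raised values was not tested. Astrocyte markers were higher in sum as well, at 2312 to 3818 normalised counts over 6 markers in tdT- and 768 to 1476 in vehicle libraries (2.83-fold on average), and 1 of the 6, the glutamate transporter Slc1a3, picked after its values were seen, was a DEG (317, 313, 298 and 25.2 in vehicle and 950.3, 1656, 2234 and 2084 in tdT- libraries, 7.27-fold higher, adjusted p = 9.1e-05, called by edgeR too). The other 5 were undecided. Slc1a3 made up a large part of the sum in tdT- libraries, which was 2312, 2548, 2822 and 3818 in F1, F2, M1 and M2. It also had the order of the microglia markers, with both M libraries above both F libraries. The part of astrocyte RNA in the raised values, and of microglial RNA in those of Slc1a3, was not tested. Among the other lists of cell types, the sums of endothelial and mural cell markers were at most 329.6 and 42.4 normalised counts in any of the 8 libraries. B cell markers summed to 7611 to 11400 in vehicle and 9773 to 12180 in tdT- libraries. Dendritic cell markers summed to 3126 to 6623 and 1297 to 6103, and oligodendrocyte markers to 1781 to 3737 and 2122 to 4039, in the same order. The part of such RNA in the values was not tested. The sum of 12 T and NK cell markers was 2756 to 3578 in vehicle and 4.22 to 989 in tdT- libraries, and 2 of the 12 passed the count filter. Most of the sum in vehicle libraries was Cd4, picked after its values were seen (3156 ± 475 against 251 ± 292, adjusted p = 0.00342). Its shrunken log2 fold change fell to between -0.27 and -0.42 when any library other than tdT- M1 or M2 was left out. The sum of 5 markers of choroid plexus epithelium was 176.4, 1265, 5709 and 149.6 in vehicle F1, F2, M1 and M2, and 0 to 703.3 in tdT- libraries. The part of choroid plexus RNA in the values was not tested.

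**Figure D4:**
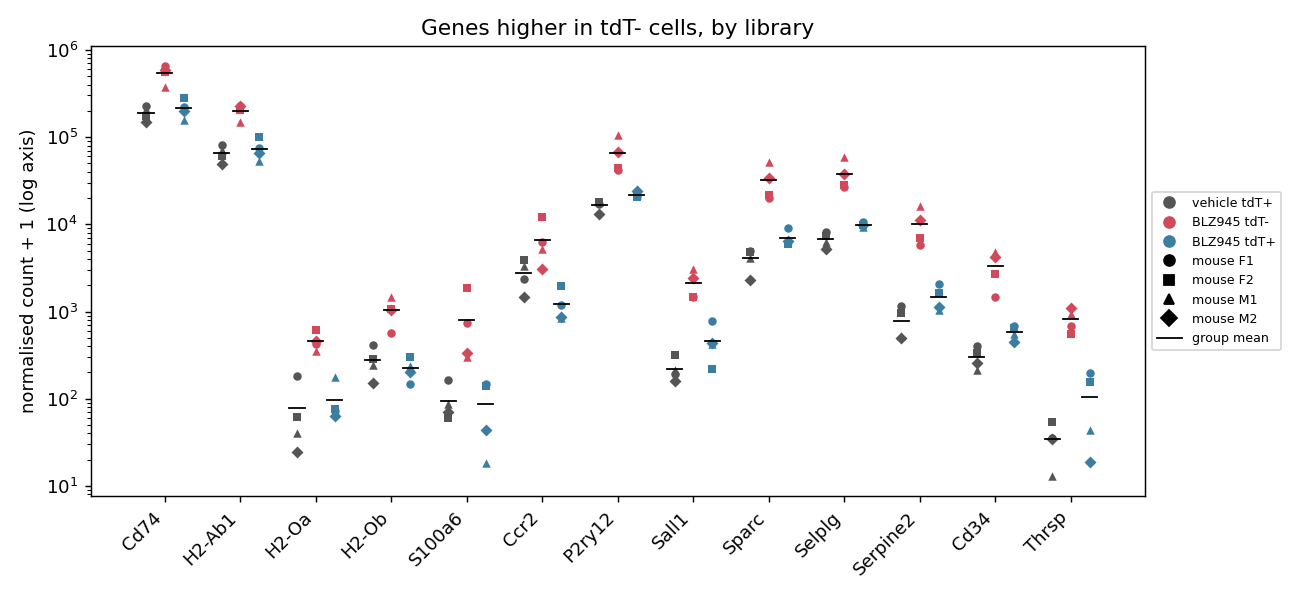
Normalised counts plus 1 (log axis) of 13 genes higher in tdT- cells, in each library of the 3 groups, with black bars at the group means and marker shapes for the mouse labels. Within the tdT- libraries M1 is lowest for Cd74, H2-Ab1 and H2-Oa, F2 is highest for S100a6 and Ccr2, and M1 is highest for each gene from P2ry12 to Cd34.

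**Figure D5:**
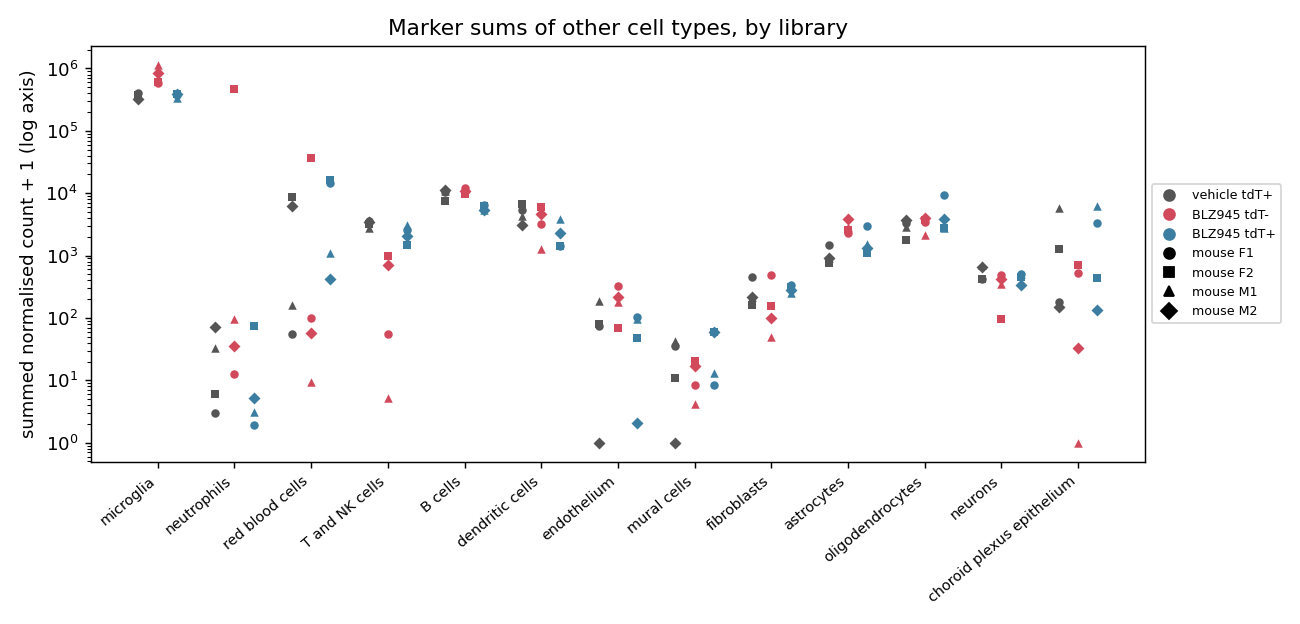
Summed normalised counts plus 1 (log axis) of the markers of 13 other cell types in each library, with colours for the groups and shapes for the mouse labels. Microglia markers are above all vehicle libraries in all 4 tdT- libraries, and neutrophil and red cell markers are far highest in tdT- F2.

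For matrix and matrix-degrading proteins, 6 of 29 genes tested were higher, 2 lower and 7 within 2-fold, beside 1.48%, 1.07% and 27.4% of all genes, with a median log2 fold change of 0.82. Besides Serpine2 and Sparc, Spint1, an inhibitor of serine proteases, had 1, 155, 96.1 and 85.6 in vehicle and 1865, 1169, 2659 and 1154 in tdT- libraries, 20.2-fold higher (adjusted p = 4.77e-08), and Lgals3, galectin-3, picked after its values were seen, was 4.42-fold higher (adjusted p = 0.000149). Mmp9, a gelatinase, had 12915, 20264, 12496 and 10946 in vehicle and 4799.5, 4004, 5195 and 2821 in tdT- libraries, 3.37-fold lower (adjusted p = 9.86e-15), and Lamc1, a laminin chain, 299.8, 244, 154 and 478 against 0, 0, 0 and 2.87 (adjusted p = 5.56e-14). Timp2 and Lgals1 were within 2-fold.

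Growth factors and trophic ligands had 17 of 25 genes undecided, close to the 70.1% of all genes, with 2 lower, 2 higher and 4 within 2-fold. Ecm1, a secreted matrix protein, had 3714, 3092, 2457 and 2349 in vehicle and 136, 346, 329 and 275 in tdT- libraries, 10.7-fold lower (adjusted p = 4.7e-35), and Bmp2, a morphogen, 1644, 2358, 1578 and 1255 against 604, 346, 379 and 651, 3.45-fold lower (adjusted p = 1.24e-07). Tnfsf13b, the B cell survival factor BAFF, was 2.83-fold higher (439 ± 97 against 1239.5 ± 257, adjusted p = 6.51e-06). Il1b was called higher in tdT- cells, with overlapping groups (90.2, 201, 58.9 and 153 in vehicle and 194, 437, 568 and 634 in tdT- libraries, adjusted p = 0.0222), but not by edgeR, nor without vehicle F1 or M1 or tdT- M1 or M2 (adjusted p = 0.0815, 0.0906, 0.0814 and 0.1). Igf1, picked after its values were seen, was lower in all 4 tdT- libraries and undecided (interval -1.29 to -0.68), and passed the DEG threshold without tdT- M1 (-1.02) or vehicle F1 (-1.01). Tgfb1 and Vegfb were within 2-fold, a call that Vegfb lost in 5 of 13 other DESeq2 fits.

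Pathogen sensing had 18 of 35 genes within 2-fold, 1 lower (Clec4n) and 0 higher in either test, beside 27.4%, 1.07% and 1.48% of all genes. The LPS co-receptor Cd14 was within 2-fold and higher in all 4 tdT- libraries (13326 ± 2084 against 18041 ± 2918), and Tlr2, which senses bacterial lipoproteins, was close to equal (8515 ± 842 against 8159.6 ± 2529). Of 39 interferon-stimulated genes, 16 were within 2-fold (27.4% of all genes were) and 0 were DEGs in either test, with Bst2 within 2-fold at 12219.5 ± 1104 against 8616 ± 1979, a call lost in 1 of 13 other DESeq2 fits. Integrins and adhesion molecules had 20 of 24 undecided (70.1% of all genes were), 2 higher (Itgb5 and Selplg) and 2 within 2-fold (Itgb1 and Itga6), and without vehicle M2 or tdT- M1 Itgb5 was not called. Cell cycle genes held 0 DEGs in either test among 33, and 28 were undecided. Mki67, a proliferation marker picked after its values were seen, had 0, 23.8, 16.4 and 47.8 in vehicle and 143, 1013, 0 and 3.82 in tdT- libraries, highest in tdT- F2. Of 15 purinergic genes, P2ry12 and Adora3 were higher and 5 (33.3%, beside 27.4% of all genes) were within 2-fold, among them P2ry6 (12096 ± 1117 against 10867 ± 680.4) and the ectonucleotidase Entpd1, which lost that call in 6 of 13 other DESeq2 fits.

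The largest differences were found in genes of low to middle level that were nearly silent in 1 of the 2 groups. Ptprk, a receptor tyrosine phosphatase, had 596, 639, 1246 and 1185 in vehicle and 1.04, 5.65, 2.11 and 0 in tdT- libraries (log2 fold change -8.59 ± 0.63, adjusted p = 4.88e-40). Lbx1, a homeobox gene, had 125, 205, 222 and 249.7 against 0, 0, 3.16 and 0, and Nrap, a nebulin-related protein, 88.2, 329.8, 533 and 430.0 against 0, 5.65, 0 and 0. Ephb6, an ephrin receptor, and Acy3, an aminoacylase, had 0 counts in all tdT- libraries and 688, 161, 234 and 52.3 and 255, 48.5, 64.1 and 108 in vehicle libraries, at least 94.7-fold and 39.7-fold lower. The shrunken log2 fold change of Acy3 collapsed to between -0.26 and -0.36 when any library other than vehicle F2 was left out. Npr1, the receptor of atrial natriuretic peptide, had 361, 297, 203 and 232 against 14.6, 12.2, 0 and 0. In the other direction, Nav2, a neuron navigator protein, 12, 9.9, 13 and 9.92 in vehicle and 135, 511, 468 and 390.1 in tdT- libraries, and Thrsp, a lipogenic regulator, 34.1, 53.5, 12.1 and 33.4 against 678, 551, 932 and 1091, were 33.5-fold and 24.4-fold higher (adjusted p = 3.98e-12 and 5.79e-10). Hspb3, a small heat shock protein, had 0 counts in vehicle and 156, 83.8, 75.9 and 188 in tdT- libraries, at least 44.7-fold higher. Capn3, Ddx43 and Pdcd1, also among the 10 largest rises, were not called by edgeR (adjusted p = 0.131, 0.058 and 0.171). They lost their call in 1, 2 and 7 of 14 other fits, and Erbb3, among the 10 largest falls, in 4. No library of either group crossed into the other for any of these, but they were picked only from DEGs whose groups did not overlap, so this holds by selection.

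The tdT+ cells of the same BLZ945 mice are set beside the tdT- cells as a second group after depletion, and their contrast shares the vehicle libraries with the main contrast. Cd163 had 42381, 39633, 51519 and 37376 normalised counts in these libraries, C4b 34298, 38476, 40936 and 41177, Timd4 3465, 5865, 6266 and 7368 and Colec12 8645 ± 1848, against which the tdT- values given above were lower in every library. Lyve1 had 34029.8, 35227, 46167 and 42944, a log2 fold change of 1.18 against vehicle (adjusted p = 4.34e-07), while that of tdT- cells was -0.71. H2-Ab1 had 73323 ± 19673 (shrunken log2 fold change against vehicle 0.08, adjusted p = 1). P2ry12 had 21874 ± 1444, above all vehicle libraries given earlier, though its shrunken log2 fold change was 0.08 (adjusted p = 0.893). For Mmp9 and Pf4 both BLZ945 groups lay below vehicle, with log2 fold changes of -0.99 and -0.45 in tdT+ cells (adjusted p = 9.35e-05 and 0.00417) and of -1.70 and -1.13 in tdT- cells. Mrc2, at 0 in vehicle, had 72.7, 128, 155 and 1.05 in BLZ945 tdT+ libraries.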

How the data were processed

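RNA of sorted cells was amplified by SMART-Seq, which copies small amounts of RNA by PCR, so a count is not 1 molecule. The authors aligned reads with STAR (2.7.11a) and deposited raw counts per gene name from featureCounts (2.0.6), over exons of GENCODE M33 (GRCm39), without strand and without reads that map to several places. Overlapping genes therefore cannot be told apart by strand. Among the named genes with exons that overlap another gene are P2ry12 with Med12l, Csf1r with Hmgxb3, Stab1 with Nt5dc2, Cp with Hps3 and Pltp with Ctsa. Gene lengths, as other values deposited by the authors with the counts, were used for TPM only.

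Genes with at least 10 counts in at least 4 of 12 libraries were fitted by group in DESeq2 (1.42.0, R 4.3.3), with apeglm (1.24.0) shrinkage. DEGs passed an adjusted p of 0.05 with a shrunken log2 fold change of 1 or more in either direction. Genes within 2-fold passed the DESeq2 test of a smaller difference at the same adjusted p, 91 genes had no adjusted p, and mean ± SD are over 4 mice. Fold changes against a group at 0 use a floor of 3 counts per library, which covers counting error only. Alternatives were edgeR (4.0.16), limma-voom (3.58.1), TMM factors, no filter, 8 libraries only, the letter or the whole mouse label as a term, and each library left out. The scripts were tested on simulated data.

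The members and lists were chosen with earlier results of these data known. Named genes were a fixed panel of sdCAM genes, in each list the DEGs with the largest and smallest fold changes (up to 3 each) and the 3 most abundant genes within 2-fold, and the 10 DEGs at either end among all genes, with at least 100 normalised counts on average. For the 10 at either end, that average was of the higher group. They were picked only from DEGs whose groups did not overlap, leaving out predicted genes. Other genes named, also in lists of calls, were chosen after their values were seen. Values of some genes are not reported here. The column whose name carries an M1 tag but the library number of the M2 vehicle mouse was read as that mouse, since the M1 vehicle library is present as well.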

Additional observations from a re-analysis of the deposited data

Results flagged for a closer look

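A library lay far from the other 3 of its group in 22 of 283 groups of 4 looked at, where chance gives about 1 in 20, or 14.2. The value given for each is the gap to the nearest other library as a share of the group's range. In tdT- F2 the summed neutrophil markers (1.0), the summed red cell markers (0.998), the number of detected genes (0.95), Pglyrp1 (0.918), Ccnd3 (0.849) and Tubb5 (0.833) were far highest, as were Erbb3 (1.0) and Nrap (1.0), which had 11.3 and 5.65 normalised counts there and 0 in the other 3. In the same library Clec4n (0.993), Ctsb (0.897), Trf (0.888) and Cbr2 (0.852) were far lowest. In tdT- M1 the values of Timd4 (0.909), Tyrobp (0.888), Itgb5 (0.874) and Tgfbr1 (0.868) were far highest, as was Lbx1 (1.0), at 3.16 against 0. In tdT- M2, Mgst1 (0.844) was far lowest, and Lamc1 (1.0) had 2.87 against 0. Among vehicle libraries, Clec10a (0.848) was far highest in F1, and Pdcd1 (1.0) and Ddx43 (1.0) had 11.9 in F2 and 1.73 in M1 against 0 in the other 3.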

How the results depend on the processing

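No named DEG changed direction in the other fits. The 203 higher DEGs became 139 in edgeR, 194 to 241 in the DESeq2 alternatives other than leaving out a library, and 277 with unshrunken fold changes. The 147 lower DEGs became 134 in edgeR and 267 with unshrunken fold changes, since shrinkage pulls genes with few or uneven counts towards 0. Leaving out 1 library gave 186 to 217 higher DEGs, 118 to 184 lower DEGs and 3126 to 3462 genes within 2-fold. With a margin of 1.5-fold in place of 2-fold, 603 genes passed in place of 3758, and limma-voom placed 3465 within 2-fold. The mouse labels did not pair the libraries, as the deviations of libraries with the same label correlated by 0.00726 (F1), 0.0211 (F2), -0.0182 (M1) and 0.0203 (M2), and a replicate block gave 221 higher, 174 lower and 3613 within 2-fold. Of 64 named DEGs, 49 kept their call in all 14 other fits and 15 lost it in at least 1, and of 61 named genes within 2-fold, 51 kept that call in all DESeq2 alternatives. By list, edgeR called 2 lower integrin genes and 1 lower purinergic gene where DESeq2 called 0, 2 lower apoptotic uptake genes in place of 1, 2 raised chemoattractant receptors in place of 4 and 1 raised growth factor in place of 2. At this depth 0 of 4144 genes below 100 normalised counts on average could be placed within 2-fold.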
